A study of Mus musculus and Rattus norvegicus with 18 samples.

Results

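The genes described here are those of the mitochondrial genome, chosen as every symbol that starts with mt-, whatever its case, in the tables of read counts. The rule found 37 of the 55487 genes listed for mouse heart RNA, which are 13 mRNAs, 2 rRNAs and 22 tRNAs. It found 11 of the 17866 genes with at least 1 counted reading frame in the heart ribosome profiling (Ribo-seq) table, and 13 mRNAs among the 32883 genes of the rat H9C2 table, which lists no mitochondrial rRNA or tRNA under such a symbol. The series compares hearts and cells labelled as lacking Mettl1, the methyltransferase that places N7-methylguanosine on a set of tRNAs, with controls, and its title concerns translation and metabolism in maturing heart muscle.

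The heart samples were a conditional Mettl1 knockout (cKO) and its control (Ctrl), both on C57BL/6 at 4 weeks of age, with 2 RNA-seq and 2 Ribo-seq libraries per genotype. The labels give no Cre driver, no deleted cell type and no alleles for Ctrl. H9C2 is a myoblast line from embryonic rat heart (labelled Sprague-Dawley), measured by RNA-seq in 3 libraries of a Mettl1-null line and 3 of the unedited line (WT). The null cells are 1 genome-edited line that carries a frameshift, so the clone and the loss of Mettl1 cannot be told apart. No label states whether replicates came from different animals or cultures, so the spread between libraries that p-values measure may be technical.

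The mitochondrial genome is a small circle that is copied and read inside the organelle by its own polymerases. Its strands, called heavy and light, are each transcribed into long RNAs that are cut, mostly at tRNAs, into rRNAs, tRNAs and mRNAs. The rRNAs and tRNAs serve the mitochondrial ribosome, and the mRNAs encode core subunits of respiratory complexes I, III and IV and of ATP synthase (complex V). All other subunits, and the factors that transcribe, process and translate these RNAs, come from nuclear genes. Heart muscle is rich in mitochondria, and their transcripts are among its most abundant RNAs.

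Totals were 15.05 to 16.84 M counts in heart RNA-seq, 25.17 to 39.68 M footprints in Ribo-seq and 90.32 to 94.2 M counts in H9C2. Levels are given as CPM, counts relative to the library total, with totals scaled by trimmed-mean (TMM) factors. Mettl1 RNA had 2.49 and 2.52 CPM in cKO hearts, against 4.31 and 3.76 CPM in Ctrl hearts, which did not pass the test (edgeR adjusted p = 0.0664). Mettl1 footprints fell by 1.54 on the log2 scale in cKO hearts (edgeR adjusted p = 1.0e-04), and Mettl1 RNA fell by 1.93 in null H9C2 (edgeR adjusted p = 1.1e-05). Cardiomyocyte markers summed to between 55137 and 55606 CPM in cKO hearts and between 59264 and 59541 CPM in Ctrl hearts, where 5 of 10 fell and 1 rose. Of 10 endothelial markers 3 fell, with sums of 2195 to 2249 CPM in cKO and 2516 to 2519 CPM in Ctrl, and of 7 pericyte and smooth muscle markers 1 fell, with 1290 to 1294 CPM in cKO and 1470 to 1482 CPM in Ctrl. Of 7 erythroid markers 3 rose, with 1594 to 2496 CPM in cKO and 1457 to 1592 CPM in Ctrl (DESeq2 called none), while none of 9 fibroblast and 8 macrophage markers was called by edgeR or DESeq2 (1 and 4 had an unadjusted p below 0.05), at 3862 to 4134 and 675 to 744 CPM in cKO and 3912 to 4086 and 628 to 654 CPM in Ctrl. In H9C2 9 of 10 cardiomyocyte markers were listed, with Myl2 and Ryr2 at 0 in all libraries and sums of 12.8 to 14.7 CPM in null and 25.5 to 27.99 CPM in WT, and Tnnt2, the largest part of the sum, fell by 1.57 (edgeR adjusted p = 1.4e-05), while Pln rose by 0.85 (edgeR adjusted p = 0.0041). Of 6 skeletal myoblast markers Myf5 was at 0, and 3 of the 5 tested rose and 1 fell. Des, Myod1 and Cdh15 rose by 1.42, 0.71 and 0.16, and Myog fell by 1.10 (edgeR adjusted p = 3.1e-06, 2.3e-04, 0.0361 and 5.3e-05), within sums of 3949 to 4100 CPM in null and 3775 to 4068 CPM in WT that were mostly Vim. Of 6 tested fibroblast markers 3 fell (Col1a1, Lum and Dcn) and Postn rose, with sums of 7989 to 8417 CPM in null and 9600 to 10075 CPM in WT. Of 6 tested pericyte and smooth muscle markers 2 rose and 3 fell, with sums of 6855 to 7130 CPM in null and 6256 to 7453 CPM in WT, and the endothelial, macrophage and erythroid sums were at most 15.1 CPM in any library. The part of these differences in the H9C2 results was not tested. Ctrl 1 of the Ribo-seq libraries and WT 2 of H9C2 stood apart in the mitochondrial values given below.

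Mitochondrial mRNAs took a smaller share of the RNA in cKO hearts. They made up 22.3% and 23.0% of all counts in cKO hearts, against 24.96% and 25.69% in Ctrl hearts. The means were 22.6% ± 0.445 in cKO and 25.3% ± 0.517 in Ctrl (SD, n = 2 each), and the genotypes did not overlap. The rRNAs held 0.469% and 0.420% in cKO hearts, against 0.554% and 0.462% in Ctrl hearts, so one cKO library lay inside the Ctrl range. The tRNAs held 0.141% and 0.130% in cKO hearts, against 0.131% and 0.122% in Ctrl hearts, which also overlapped. These shares are descriptions with no test, and in whole tissue fewer cells of a type and less RNA per cell cannot be told apart. The cardiomyocyte marker sum above was lower in the same cKO libraries, and its part in the share was not tested.

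**Figure D1:**
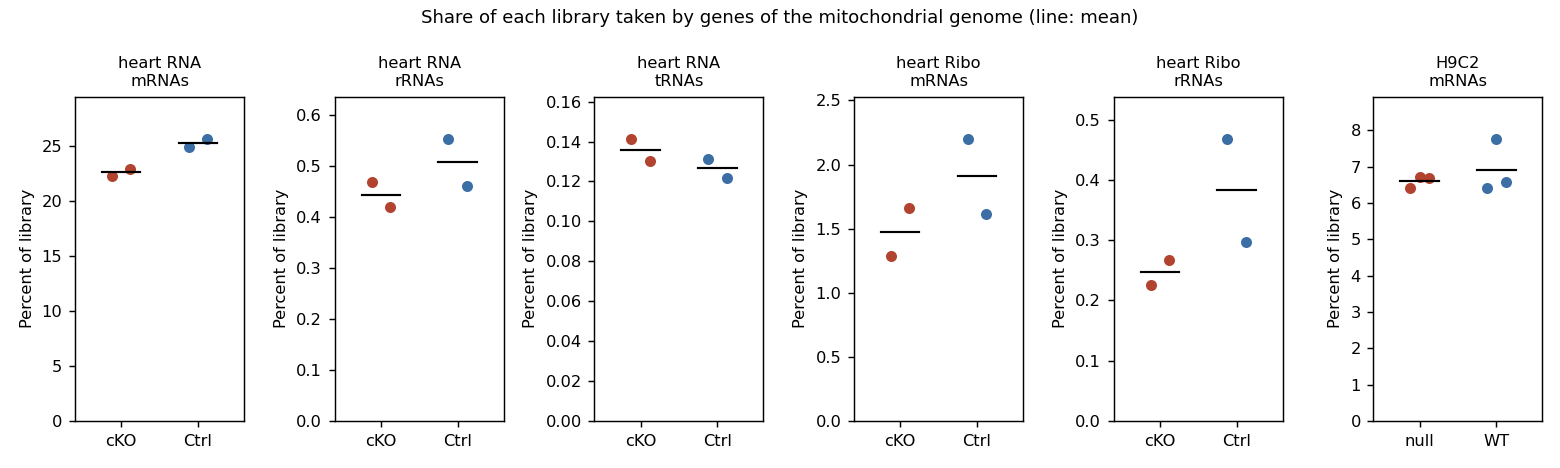
Percent of each library's counts (y axes, each starting at 0) held by mitochondrial mRNAs, rRNAs and tRNAs, with 1 point per library and the mean as a line, the Mettl1-deficient group on the left of each panel. Heart mRNAs sit at 22.3% and 23.0% in cKO and at 24.96% and 25.69% in Ctrl, while the other panels overlap or hold 1 high Ctrl or WT library.

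Levels along the mitochondrial genome were very uneven in heart. In CPM per kilobase of gene, on library totals, the 7 mRNAs mt-Nd1, mt-Nd2, mt-Co1, mt-Nd4, mt-Nd5, mt-Nd6 and mt-Cytb ranged from 6284 to 96387 over the 4 libraries. The other 6, mt-Co2, mt-Atp8, mt-Atp6, mt-Co3, mt-Nd3 and mt-Nd4l, ranged from 25.2 to 232. These 6 held 0.177% and 0.140% of the mitochondrial mRNA counts in cKO hearts, against 0.161% in each Ctrl heart. mt-Co1, which encodes the catalytic subunit of complex IV, alone held 57.1% ± 0.302 in cKO and 57.1% ± 1.22 in Ctrl (SD, n = 2 each).

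The 6 low mRNAs are neighbours, and they lie in a stretch that also exists in the nuclear genome. RefSeq places a pseudogene whose synonym is mt-Atp6, Gm10925, on chromosome 1 of GRCm38.p6 at 24613971 to 24614651. It has the length of mt-Atp6, 681 bases, which lies at 7927 to 8607 of the mitochondrial genome. Another pseudogene there, Gm10222, matches mt-Nd4l in length at 297 bases, and 6 pairs of reading frames with equal codon numbers in the Ribo-seq table keep the same order with positions that fit within 3 bases. These pairs join Gm29216 to mt-Co1, Gm28661 to mt-Co2, Gm28437 to mt-Co3, Gm28438 to mt-Nd3 and Gm28439 to mt-Nd4. Together the matches cover 6463 to 10736 of the mitochondrial genome and 24611841 to 24616115 of chromosome 1, taking the frames, whose table names no chromosome, to lie beside these pseudogenes. All 6 low mRNAs and 5 tRNAs lie wholly inside that stretch, and mt-Co1 and mt-Nd4 reach into it.

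The copies themselves were also counted at a low level. The 7 copy genes held between 351 and 2605 counts per heart library. Gm28439, the copy of part of mt-Nd4, had 39.97 and 36.26 CPM in cKO hearts, against 46.5 and 49.8 CPM in Ctrl hearts, and was the sole copy gene called (edgeR log2 fold change −0.34, SE 0.08, adjusted p = 0.0126). Reads of these genes and of the mitochondrial stretch may not be told apart, and the sources used here do not say how such reads were counted. Values of the 6 mRNAs inside the stretch, and of the parts of mt-Co1 and mt-Nd4 that reach into it, are uncertain for that reason. The share of mt-Co1 and the heart mRNA shares of the libraries rest on the same counts. In rat H9C2 the same 6 mRNAs were counted at 316 CPM or more in every library.

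**Figure D2:**
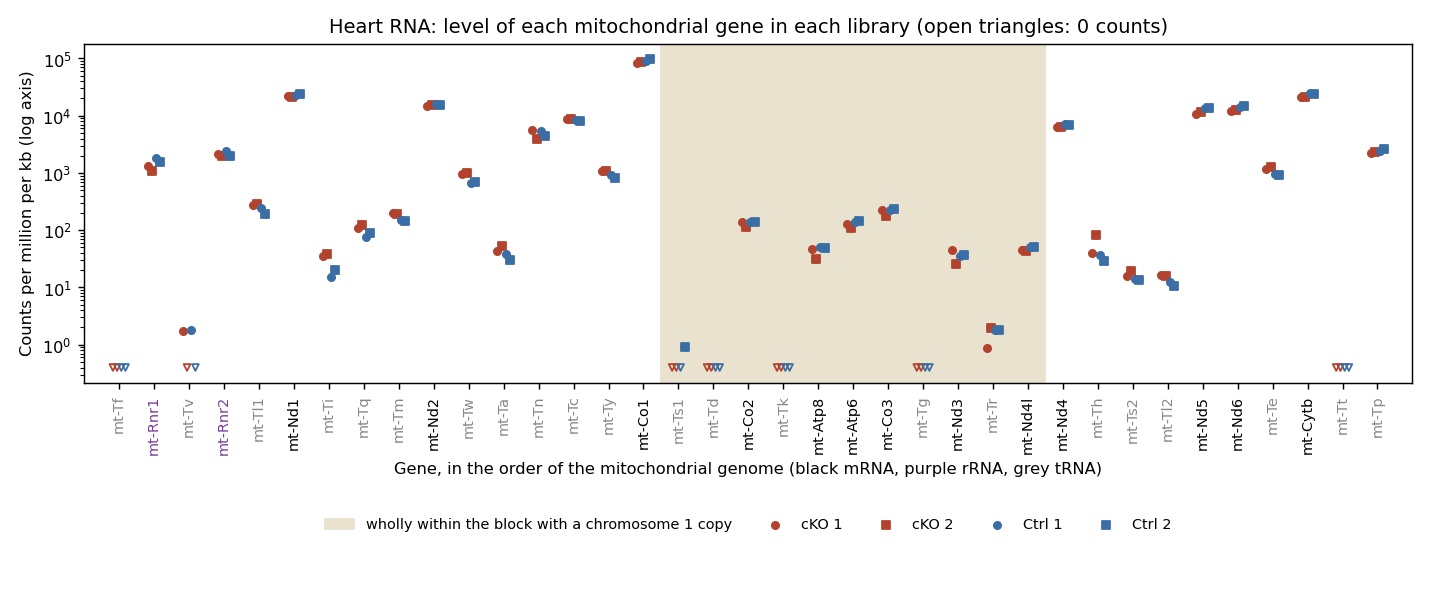
CPM per kilobase (log axis) of the 37 mitochondrial genes in the order of the mitochondrial genome, with 1 point per heart library (cKO in red, Ctrl in blue), open triangles for 0 counts and shading for genes wholly inside the stretch copied on chromosome 1. The 6 shaded mRNAs range from 25.2 to 232 and the other 7 from 6284 to 96387.

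Of the 13 mRNAs 9 fell in cKO hearts and 0 rose (edgeR quasi-likelihood test, adjusted p below 0.05), where 6.26% of all 14088 tested genes were called lower and 8.16% higher (14.4% in either direction). All 13 fold changes were below 0, with a median log2 fold change of −0.24 against −0.00013 over all tested genes. For 12 of the 13 both cKO libraries lay below both Ctrl libraries, mt-Nd3 being the exception. How many of all tested genes separated in this way is not given here, so that count is a description and not a result about mRNAs. All log2 fold changes lay between −0.42 and −0.11.

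Among the complex I subunits, mt-Nd5 changed most of those called. mt-Nd5 had 18968 and 20601 CPM in cKO hearts, against 25182 and 25620 CPM in Ctrl hearts. It lies on the heavy strand at 11742 to 13565 and fell by 0.36 (SE 0.04, edgeR adjusted p = 3.1e-05). mt-Nd6, the sole mRNA of the light strand (13552 to 14070), had 6057 and 6381 CPM in cKO hearts, against 7627 and 7842 CPM in Ctrl hearts. It fell by 0.31 (SE 0.04, edgeR adjusted p = 1.2e-04), and because it lies opposite heavy-strand RNA and no label states the strand setting, reads from either strand may be included. mt-Nd4 had 8438 and 8662 CPM in cKO hearts, against 10253 and 9887 CPM in Ctrl hearts. It fell by 0.24 (SE 0.04, edgeR adjusted p = 8.9e-04), so these 3 genes shared a direction without overlap of the genotypes.

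mt-Nd1 and mt-Nd2 had smaller fold changes, a difference between genes that was not tested. mt-Nd1 (2751 to 3707) had 20923 and 19946 CPM in cKO hearts, against 22494 and 23192 CPM in Ctrl hearts, and fell by 0.16 (SE 0.04, edgeR adjusted p = 0.0105). mt-Nd2 (3914 to 4951) had 15000 and 15671 CPM in cKO hearts, against 17145 and 16652 CPM in Ctrl hearts, and fell by 0.14 (SE 0.04, edgeR adjusted p = 0.0248). Both calls were lost with library totals as the scaling (−0.08 and −0.06) and with DESeq2 (adjusted p = 0.129 and 0.233), and that of mt-Nd2 also without cKO 1 or Ctrl 1 (adjusted p = 0.114 and 0.130). mt-Nd3 and mt-Nd4l, inside the copied stretch, had 8.53 to 15.2 and 12.6 to 12.9 CPM in cKO hearts and 12.7 to 13.1 and 15.3 to 15.8 CPM in Ctrl hearts, and neither was called.

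mt-Co1 and mt-Cytb, the highly counted mRNAs of complexes IV and III, also fell. mt-Co1 (5328 to 6872) had 123696 and 127937 CPM in cKO hearts, against 144234 and 153598 CPM in Ctrl hearts. It fell by 0.24 (SE 0.04, edgeR adjusted p = 2.4e-04), and it was the most abundant mitochondrial RNA per kilobase in every library. mt-Cytb, the complex III subunit (14145 to 15288), had 24137 and 23877 CPM in cKO hearts, against 29079 and 27740 CPM in Ctrl hearts, and fell by 0.24 (SE 0.04, edgeR adjusted p = 3.6e-04). The remaining subunits of these complexes lie inside the copied stretch.

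Of those, the ATP synthase subunit mt-Atp6 had 85.4 and 72.9 CPM in cKO hearts, against 97.7 and 101 CPM in Ctrl hearts, and fell by 0.33 (SE 0.08, edgeR adjusted p = 0.0091), a call lost without cKO 2 (adjusted p = 0.105). The complex IV subunit mt-Co3 had 169 and 137 CPM in cKO hearts, against 179 and 188 CPM in Ctrl hearts, and fell by 0.26 (SE 0.08, edgeR adjusted p = 0.0452). That call did not survive library totals, DESeq2, leaving out cKO 2 or Ctrl 2, or adding the counts of the chromosome 1 copy (adjusted p = 0.161, 0.106, 0.388, 0.0535 and 0.0550). mt-Co2 and mt-Atp8 had log2 fold changes of −0.19 and −0.42 and were not called.

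Of the 2 rRNAs, mt-Rnr1 alone was called lower in the main test. Both were called lower when genes with at least 1 count were kept, and when libraries of the same number were treated as a block. mt-Rnr1, the rRNA of the small ribosomal subunit (70 to 1024), had 1212 and 991 CPM in cKO hearts, against 1806 and 1546 CPM in Ctrl hearts. It fell by 0.61 (SE 0.08, edgeR adjusted p = 1.3e-04), more than any mitochondrial mRNA that was called. mt-Rnr2, the rRNA of the large subunit (1094 to 2675), had 3354 and 3093 CPM in cKO hearts, against 3886 and 3220 CPM in Ctrl hearts, so the genotypes overlapped (log2 fold change −0.14, SE 0.07, edgeR adjusted p = 0.204). The ratio of mt-Rnr1 to mt-Rnr2 counts was 0.361 and 0.320 in cKO hearts, against 0.465 and 0.480 in Ctrl hearts. This pair was set side by side after its values were seen and was not tested. Whether rRNA was removed before sequencing is not stated by the labels, and its part in these rRNA values was not tested.

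Few tRNAs were called. Of 22, 14 had enough counts to test, and 8 were left out with at most 7 counts over the 4 libraries, 5 of them inside the copied stretch and 5 with no count at all. Of the 14 tested, 2 rose and 1 fell, where 8.16% of all tested genes were called higher and 6.26% lower, so the count is near the background. Their log2 fold changes were above 0 for 12 of 14, with a median of 0.31, and for 12 both cKO libraries lay above both Ctrl libraries. The share of all tested genes that separated in this way is not given here, so that count is a description and not a result about tRNAs. Since the filter keeps genes by their counts, these numbers describe the tested tRNAs and not all 22.

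The tryptophan tRNA mt-Tw (4950 to 5016) had 62.6 and 66.2 CPM in cKO hearts, against 46.2 and 49.0 CPM in Ctrl hearts, and rose by 0.44 (SE 0.07, edgeR adjusted p = 9.1e-04). The glutamate tRNA mt-Te (14071 to 14139) had 79.9 and 86.1 CPM in cKO hearts, against 68.7 and 65.8 CPM in Ctrl hearts, and rose by 0.30 (SE 0.07, edgeR adjusted p = 0.0083), a call lost without cKO 2 (adjusted p = 0.0819). The proline tRNA mt-Tp (15356 to 15422) had 144 and 151 CPM in cKO hearts, against 165 and 180 CPM in Ctrl hearts, and fell by 0.23 (SE 0.06, edgeR adjusted p = 0.0255). The mt-Tp call was lost with library totals, with DESeq2 and without cKO 1 or Ctrl 2 (adjusted p = 0.139, 0.0899, 0.156 and 0.208).

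The other tRNAs with a mean of at least 1 CPM were not called. The cysteine tRNA mt-Tc, the most counted, had 575 and 570 CPM in cKO hearts, against 560 and 542 CPM in Ctrl hearts (log2 fold change 0.06). The asparagine tRNA mt-Tn had 393 and 270 CPM in cKO hearts, against 399 and 326 CPM in Ctrl hearts, with a wide spread within each genotype. The tyrosine tRNA mt-Ty had 71.3 and 70.0 CPM in cKO hearts, against 64.6 and 56.5 CPM in Ctrl hearts. Both cKO libraries of mt-Ty were the higher ones (0.22, edgeR adjusted p = 0.0648).

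Leucine tRNA mt-Tl1 had 20.4 and 21.1 CPM in cKO hearts, against 18.66 and 15.02 CPM in Ctrl hearts. Methionine tRNA mt-Tm had 13.2 and 12.9 CPM in cKO hearts, against 10.7 and 10.3 CPM in Ctrl hearts, and glutamine tRNA mt-Tq had 7.46 and 8.47 CPM in cKO hearts, against 5.66 and 6.49 CPM in Ctrl hearts. Each of these 3 had log2 fold changes between 0.30 and 0.39 with no overlap between genotypes. At the low end, isoleucine tRNA mt-Ti had 2.43 and 2.59 CPM in cKO hearts, against 1.09 and 1.46 CPM in Ctrl hearts, with the largest log2 fold change of the tested tRNAs, 0.96 (SE 0.31, edgeR adjusted p = 0.0511). Histidine tRNA mt-Th had 2.66 and 5.36 CPM in cKO hearts, against 2.51 and 2.04 CPM in Ctrl hearts, and alanine tRNA mt-Ta had 2.89 and 3.62 CPM in cKO hearts, against 2.70 and 2.16 CPM in Ctrl hearts. The last pair of tested tRNAs, mt-Ts2 and mt-Tl2, had 0.926 to 1.16 CPM in cKO hearts and 0.764 to 0.901 CPM in Ctrl hearts.

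Counts on tRNA genes in a library of long RNAs can come from uncut precursors as well as from mature tRNA, and several tRNA genes share bases with a neighbour, such as mt-Tw, which starts at 4950 before mt-Nd2 ends at 4951. Which form was counted was not tested. With library totals as the scaling, 7 mitochondrial genes were called lower and 6 higher, against 11 lower and 2 higher with trimmed-mean factors, and that scaling raised the median log2 fold change of all genes by 0.08. mt-Co1, mt-Cytb, mt-Nd4, mt-Nd5, mt-Nd6, mt-Rnr1 and mt-Tw kept their calls in every alternative run.

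**Figure D3:**
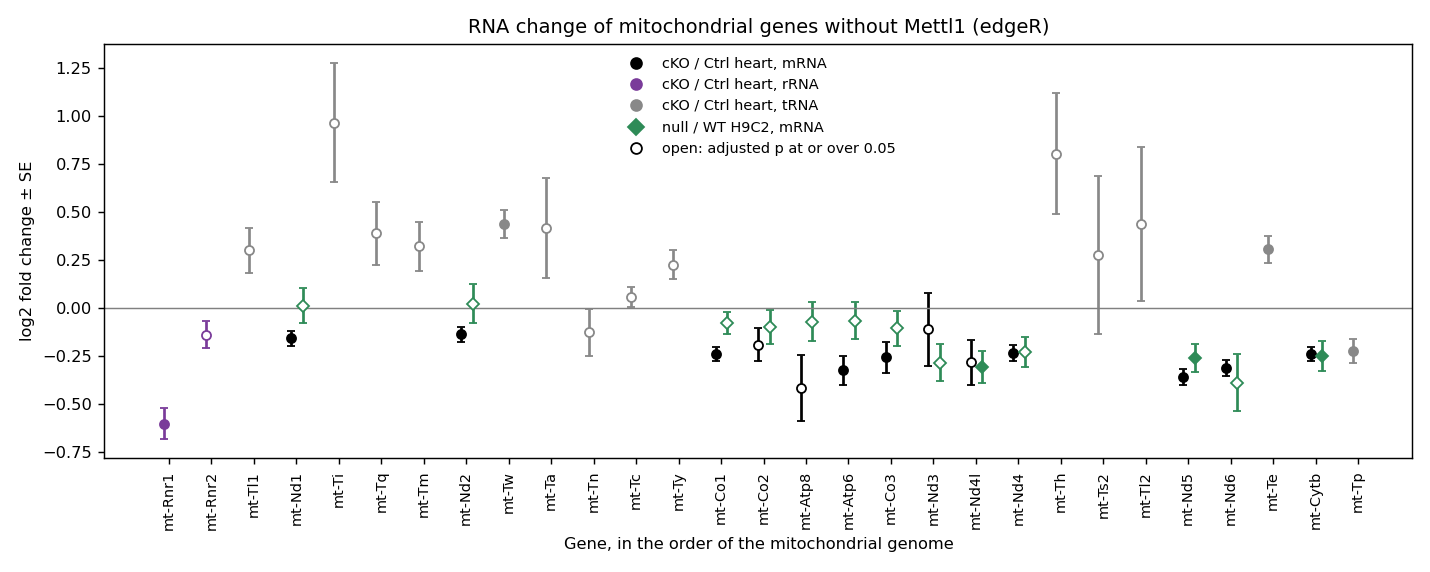
log2 fold change with its SE (y axis) of the tested mitochondrial genes in the order of the genome, for cKO over Ctrl heart RNA (circles, by class) and null over WT H9C2 RNA (diamonds, mRNAs), filled where the edgeR adjusted p was below 0.05. Heart mRNAs lie between −0.42 and −0.11, 12 of 14 tRNAs lie above 0, and 3 of 13 H9C2 mRNAs are filled.

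Ribosome footprints on mitochondrial mRNAs were fewer in cKO hearts for some genes, with a larger spread between libraries than for RNA. The Ribo-seq table counts 20 frames of 11 mitochondrial genes, 9 of them mRNAs, and mt-Atp6, mt-Atp8, mt-Nd4l and mt-Nd5 have no frame. The frames cover only parts of the genes, from 2.33% to 49.7% of their length, so levels were not compared between genes. Of 17 mRNA frames 14 are in the reading frame of the gene, and these hold 99.4% of the mRNA footprints. Inside the copied stretch 6 frames hold 6 footprints in all, while the 14 outside hold 2578418.

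Mitochondrial mRNA frames took 1.28% and 1.66% of footprints in cKO hearts, against 2.20% and 1.62% in Ctrl hearts. Ctrl 1 was far above the others and Ctrl 2 lay within the cKO range. In the same libraries cardiomyocyte markers summed to 140149 and 139451 footprint CPM in cKO hearts, against 164778 and 157139 in Ctrl hearts, and 4 of 10 fell and 1 rose. The latter was Nppa, with 4768 and 3689 in cKO hearts, against 319 and 370 in Ctrl hearts, which are part of these sums. Endothelial markers summed to 2150 and 2586 in cKO hearts, against 3110 and 2689 in Ctrl hearts, with 1 of 9 tested lower, and pericyte and smooth muscle markers to 1159 and 1277 in cKO hearts, against 1471 and 1556 in Ctrl hearts, with 1 of 7 lower. Of 7 erythroid markers 1 rose, with sums of 516 and 339 in cKO hearts, against 291 and 349 in Ctrl hearts. No fibroblast or macrophage marker was called by edgeR or DESeq2 (1 and 2 had an unadjusted p below 0.05), with 8127 to 8753 and 1279 to 1338 in cKO hearts and 8272 to 9018 and 1214 to 1215 in Ctrl hearts. The part of the cell-type markers in the footprint results was not tested. For each gene the frame with the most footprints was tested, and 8 genes passed the filter. Of these, 4 fell and 0 rose in cKO hearts, where 7.33% of all 13514 genes tested were called lower and 9.11% higher. The 8 comprised 6 mRNAs, mt-Rnr1 and mt-Ti, and 7 of them were highest in Ctrl 1.

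mt-Nd1 had the clearest change. Its frame at 3348 to 3620 had 1451 and 1921 footprint CPM in cKO hearts, against 2940 and 2656 in Ctrl hearts, and fell by 0.73 (SE 0.11, edgeR adjusted p = 2.3e-04). It was called in every alternative run. mt-Cytb (14667 to 14960) had 2960 and 3959 footprint CPM in cKO hearts, against 6096 and 3962 in Ctrl hearts, and fell by 0.54 (SE 0.15, edgeR adjusted p = 0.0257). mt-Co1 (5907 to 6035) had 4364 and 5608 footprint CPM in cKO hearts, against 7458 and 5708 in Ctrl hearts, and fell by 0.40 (SE 0.12, edgeR adjusted p = 0.0328).

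In both mt-Cytb and mt-Co1 the second library of each genotype was nearly level, and the distance came from Ctrl 1 and cKO 1. Without Ctrl 1 the log2 fold changes were −0.20 for each, with adjusted p of 0.381 for mt-Cytb and 0.326 for mt-Co1, and both calls were also lost without cKO 1 (adjusted p = 0.102 and 0.260) and with DESeq2 (adjusted p = 0.423 and 0.392), that of mt-Co1 with library totals too (adjusted p = 0.0726). Footprints assigned to mt-Rnr1 (890 to 946) had 2072 and 2411 CPM in cKO hearts, against 4421 and 2819 CPM in Ctrl hearts, and fell by 0.69 (SE 0.14, edgeR adjusted p = 0.0038), with −0.33 without Ctrl 1 (adjusted p = 0.0337) and an adjusted p of 0.186 with DESeq2. An rRNA is not translated, and whether these reads are fragments of the ribosome was not tested.

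The remaining frames overlapped between genotypes. mt-Nd2 had 1737 and 2115 footprint CPM in cKO hearts, against 3290 and 1898 in Ctrl hearts (log2 fold change −0.43, edgeR adjusted p = 0.102). mt-Nd4 had 1198 and 1734 footprint CPM in cKO hearts, against 1716 and 1275 in Ctrl hearts, a log2 fold change of −0.03. mt-Nd6 had 662 and 651 footprint CPM in cKO hearts, against 957 and 627 in Ctrl hearts, and mt-Ti had 17.18 and 24.998 in cKO hearts, against 47.1 and 22.4 in Ctrl hearts. A tRNA is not translated, and the source of the mt-Ti reads was not tested.

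**Figure D4:**
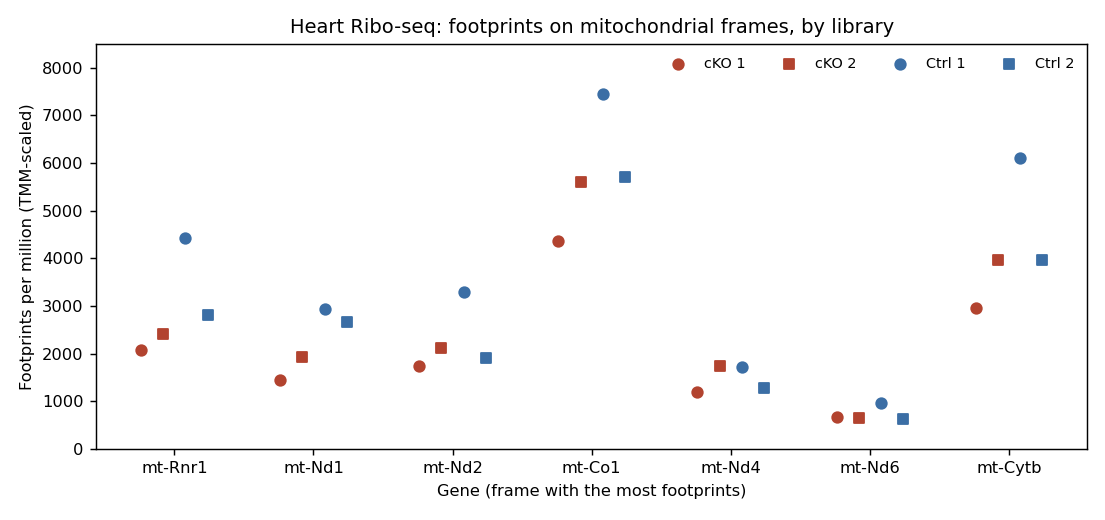
Footprint CPM (y axis, TMM-scaled) on the most covered frame of 7 mitochondrial genes, with 1 point per Ribo-seq library, cKO in red left of Ctrl in blue. mt-Nd1 has 1451 and 1921 in cKO and 2940 and 2656 in Ctrl, while Ctrl 1 is the highest library for most of the other genes.

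Translational efficiency, the change of footprints beyond that of RNA, was tested by the genotype-by-assay interaction in 1 model of the 8 heart libraries. None of the 8 mitochondrial genes was called, where 0.126% of the 12662 genes tested were, 0.0711% higher and 0.0553% lower (edgeR), while 2 had an unadjusted p below 0.05 and DESeq2 called 1. With a replicate block, which pairs RNA and footprint libraries of the same number, edgeR called 1 mitochondrial mRNA and mt-Ti lower. Over all genes that setting called 48 higher and 86 lower. The smallest p was that of mt-Nd1, at −0.59 (SE 0.13, edgeR adjusted p = 0.120), which DESeq2 called (adjusted p = 0.0437). mt-Ti had −1.69 (SE 0.60, edgeR adjusted p = 0.390). Because mt-Ti is a tRNA and mt-Rnr1 an rRNA, which are not translated, their values here do not describe translation. The other values were −0.31 for mt-Cytb, −0.30 for mt-Nd2, −0.17 for mt-Co1, −0.10 for mt-Rnr1, 0.03 for mt-Nd6 and 0.19 for mt-Nd4, each with an SE of 0.15 to 0.22.

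In H9C2 the mitochondrial mRNAs made up 6.41%, 6.72% and 6.68% of counts in null cells, against 6.42%, 7.77% and 6.57% in WT cells. The means were 6.60% ± 0.165 in null and 6.92% ± 0.737 in WT (SD, n = 3 each). WT 2 was the highest library for all 13 mRNAs, and the summed shares of WT 1 and WT 3 lay close to the null ones. Of the 13 mRNAs 3 fell and 0 rose, where 11.5% of the 14801 genes tested were called lower and 13.6% higher (25.1% in either direction). The median log2 fold change of the 13 was −0.11, against 0.0044 over all tested genes.

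Mt-nd5 had 2260, 2265 and 2251 CPM in null cells, against 2464, 3029 and 2636 CPM in WT cells, and fell by 0.26 (SE 0.07, edgeR adjusted p = 0.0274). Mt-nd4l had 316, 339 and 325 CPM in null cells, against 347, 437 and 430 CPM in WT cells, and fell by 0.31 (SE 0.09, edgeR adjusted p = 0.0297). Mt-cyb had 6497, 6537 and 6543 CPM in null cells, against 7111, 8916 and 7300 CPM in WT cells, and fell by 0.25 (SE 0.08, edgeR adjusted p = 0.0493). For these 3 genes, and for Mt-nd3, Mt-nd4 and Mt-nd6, every null library lay below every WT library, while the share of all tested genes that did so is not given here. None of the calls was kept when any single null library was left out (adjusted p from 0.0713 to 0.144).

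The other complex I genes differed among themselves. Mt-nd6 had 345, 414 and 404 CPM in null cells, against 457, 647 and 421 CPM in WT cells, the lowest log2 fold change of the 13 at −0.39 (SE 0.15, edgeR adjusted p = 0.0921). Mt-nd1 had 3827, 3961 and 4002 CPM in null cells, against 3576, 4568 and 3558 CPM in WT cells, and Mt-nd2 had 4235, 4357 and 4274 CPM in null cells, against 3697, 5039 and 3949 CPM in WT cells. Both lay above the WT 1 and WT 3 libraries and below WT 2, with log2 fold changes of 0.01 and 0.02. Without WT 2 both were called higher (0.14 and 0.17, edgeR adjusted p = 0.0120 and 0.01001), Mt-nd5 and Mt-cyb were still called lower, and Mt-nd4l was not (adjusted p = 0.0525).

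None of the complex IV and V mRNAs was called in H9C2 by edgeR or DESeq2, and 0 had an unadjusted p below 0.05, including those that lie inside the copied stretch in mouse. Mt-co1 had 22668 to 23774 CPM in null cells and 23395 to 27040 CPM in WT cells. Mt-co2, Mt-co3, Mt-atp6 and Mt-atp8 had log2 fold changes between −0.11 and −0.07, with overlapping groups. Mt-nd3 and Mt-nd4 had −0.29 and −0.23 (edgeR adjusted p = 0.0577 and 0.0659).

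Among the mitochondrial mRNAs themselves, 4 of 13 had shares that moved the same way without overlap in heart and H9C2, a set chosen after the values were seen and given with no test. The shares of each library add up to the whole, so a gain of some genes lowers others. How often shares of so few libraries separate without a difference between groups was not tested, so the count is a description. The share of mt-Nd1 among mitochondrial mRNA counts was 9.27% ± 0.485 in cKO and 8.76% ± 0.0136 in Ctrl hearts (SD, n = 2 each), and 6.03% ± 0.0498 in null and 5.55% ± 0.167 in WT H9C2 (SD, n = 3 each). The share of mt-Nd5 was 8.97% ± 0.357 in cKO and 9.74% ± 0.107 in Ctrl hearts, and 3.47% ± 0.0918 in null and 3.86% ± 0.112 in WT H9C2. In both systems mt-Nd1 and mt-Nd2 had shares above every control library and mt-Nd5 and mt-Nd6 had shares below every control library. The other mRNAs did not share this: those of Mt-cyb, Mt-nd3 and Mt-nd4l were below every WT library in H9C2 but overlapped in heart, and the remaining 6 overlapped in both. The share of the complex III mRNA was 10.9% ± 0.286 in cKO and 10.9% ± 0.615 in Ctrl hearts, and 10.02% ± 0.225 in null and 11.1% ± 0.0906 in WT H9C2.

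Counts of mt-Nd5 relative to mt-Nd1 were 0.907 and 1.03 in cKO hearts, against 1.12 and 1.10 in Ctrl hearts. In H9C2 that ratio was 0.590, 0.572 and 0.562 in null cells, against 0.689, 0.663 and 0.741 in WT cells. For mt-Nd6 relative to mt-Nd1 the ratios were 0.289 and 0.320 in cKO hearts, against 0.339 and 0.338 in Ctrl hearts, and 0.0901, 0.104 and 0.101 in null H9C2, against 0.128, 0.142 and 0.118 in WT H9C2. No ratio overlapped between groups, WT 2 included. This follows from the shares above, where mt-Nd1 lay above and mt-Nd5 and mt-Nd6 lay below every control library. The ratios restate those shares and are not a further result. The log2 fold changes of heart and H9C2 were also compared over the 7 mRNAs not wholly inside the copied stretch, of which mt-Co1 and mt-Nd4 reach into it. They had a Pearson correlation of 0.84 and a Spearman correlation of 0.86, and over all 13 of 0.21 and 0.19, where genes of 1 set of libraries share depth and source and are not independent.

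**Figure D5:**
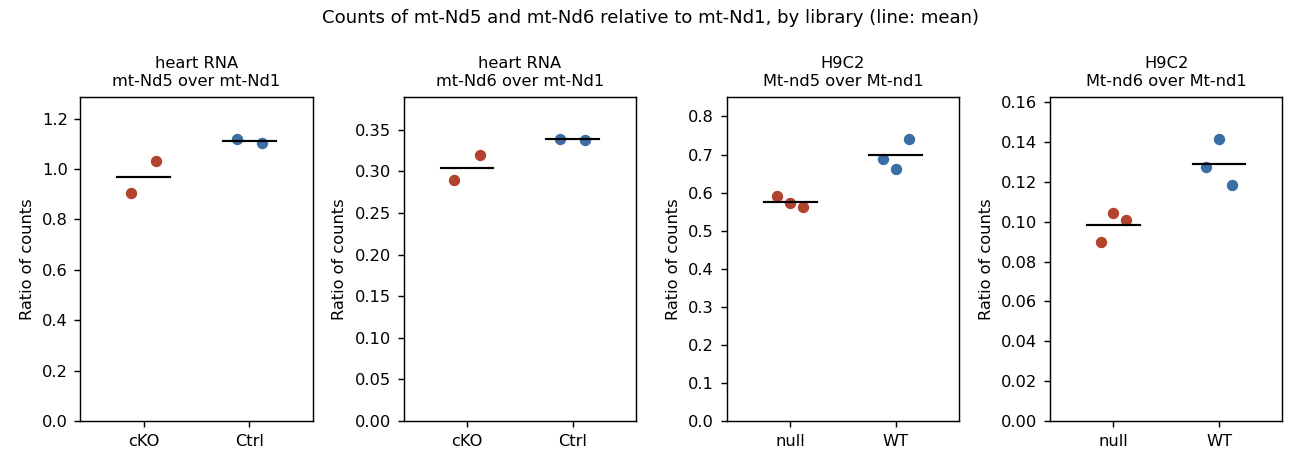
Ratio of counts (y axes, each starting at 0) of mt-Nd5 and mt-Nd6 to mt-Nd1 in each library, with the mean as a line, for cKO left of Ctrl hearts and null left of WT H9C2. The mt-Nd5 ratios are 0.907 and 1.03 in cKO and 1.12 and 1.10 in Ctrl hearts, and 0.562 to 0.590 in null and 0.663 to 0.741 in WT cells.

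A minority of the nuclear genes that serve the mitochondrial genome were called in cKO heart RNA, where 14.4% of all tested genes were called in either direction, and the counts below are read against that share. Of 16 genes for its upkeep and transcription 2 rose and 1 fell in RNA (median log2 fold change 0.02). Top1mt, a mitochondrial topoisomerase, and Ssbp1, which binds single-stranded mitochondrial DNA, rose by 0.71 and 0.37 (edgeR adjusted p = 0.0441 and 0.0497), and Mterf2, of the transcription termination factor family, fell by 0.52 (edgeR adjusted p = 0.0336). Of 32 genes for processing and stability of mitochondrial RNA 3 rose and 0 fell (median 0.03). These were Lrpprc, which binds and stabilises mitochondrial mRNAs, at 0.23, Rexo2, an oligoribonuclease, at 0.32, and Ptcd3, a protein of the small mitochondrial ribosomal subunit, at 0.22 (edgeR adjusted p = 0.0140, 0.0198 and 0.0310). DESeq2 called none of these 6 genes.

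Among 17 tested mitochondrial translation factors 1 rose and 3 fell (median −0.05). Tufm, the mitochondrial elongation factor Tu, fell by 0.52 (SE 0.06, edgeR adjusted p = 1.9e-05). Oxa1l, which inserts newly made proteins into the inner membrane, fell by 0.32, Mtif2, an initiation factor, fell by 0.34, and Gfm1, an elongation factor, rose by 0.18 (edgeR adjusted p = 0.0027, 0.0367 and 0.0496), and DESeq2 called 2 of the list, both lower. Of 17 enzymes that modify mitochondrial tRNAs 1 fell, Trmt5, a tRNA methyltransferase, by 0.39 (edgeR adjusted p = 0.0086). Of 22 mitochondrial aminoacyl-tRNA synthetases 3 fell and 0 rose, Sars2, Tars2 and Vars2, by 0.64, 0.33 and 0.38 (edgeR adjusted p = 0.0112, 0.0225 and 0.0280), none of which DESeq2 called.

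The nuclear subunits that join the mitochondrial ones in each complex had calls in both directions in heart RNA. Of 37 complex I subunits 10 rose and 3 fell (median 0.08), with Ndufb6 at 0.41 and Ndufs8 at 0.30 among those that rose and Ndufs1, an iron-sulfur subunit, at −0.51 among those that fell (edgeR adjusted p = 7.0e-04, 0.0026 and 9.6e-06). DESeq2 called 4 higher and 3 lower. Of 9 complex III subunits 1 rose and 3 fell, of 14 complex IV subunits 2 rose and 3 fell, and of 15 complex V subunits 1 rose and 2 fell, with medians of 0.06, 0.04 and 0.04. In complex IV Cox7a2 rose by 0.37 and Cox6a2, the muscle isoform of a different subunit, fell by 0.27 (edgeR adjusted p = 6.4e-04 and 0.0017). Atp5b, the catalytic subunit of ATP synthase, fell by 0.24 (edgeR adjusted p = 9.1e-04). Of the 4 subunits of complex II, which has no mitochondrial gene, 2 fell, Sdha by 0.32 and Sdhb by 0.21 (edgeR adjusted p = 2.6e-04 and 0.0164), of which DESeq2 called 1.

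On footprints, 16.4% of all genes were called in either direction. Of 15 tested translation factors 5 fell and 0 rose, with Oxa1l at −0.47 and Mtif2 at −0.37 (edgeR adjusted p = 0.0026 and 0.0283). Of 32 processing genes 1 rose and 5 fell, with Hsd17b10, a subunit of mitochondrial RNase P, at −0.49 and Trmt61b, a methyltransferase of mitochondrial RNA, at 0.67 (edgeR adjusted p = 3.8e-04 and 0.0136). Of the nuclear complex I subunits 3 rose and 4 fell, of complex III 0 rose and 4 fell, of complex IV 3 rose and 4 fell, and of complex V 1 rose and 1 fell. Complex II again had 2 lower, Sdhb by 0.61 and Sdha by 0.43 (edgeR adjusted p = 5.1e-05 and 9.8e-04). Of the other lists, upkeep and transcription had 0 higher and 1 lower, tRNA modification 2 and 2, and synthetases 0 and 2. No gene of these 10 lists was called for translational efficiency by edgeR, while between 1 and 11 genes per list had an unadjusted p below 0.05 and DESeq2 called 1 tRNA modification enzyme and 1 complex II subunit, both lower.

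In H9C2, where 25.1% of all genes were called in either direction, 0 of 35 tested nuclear complex I subunits rose and 5 fell (median −0.16), with Ndufa9 at −0.37 (edgeR adjusted p = 0.0053). Of 15 complex V subunits 0 rose and 1 fell (median −0.18), of 11 complex IV subunits 1 rose and 1 fell, of 9 complex III subunits 1 fell and of 4 complex II subunits 2 fell. Tufm fell there too, by 0.30 (edgeR adjusted p = 0.0019), with Mrrf, a ribosome recycling factor, by 0.28 (edgeR adjusted p = 0.0123), as 2 of 16 tested translation factors. Of 30 processing genes 3 fell, among them Fastk, whose mitochondrial form is needed for mt-Nd6 mRNA, by 0.61 and Ptcd3 by 0.44 (edgeR adjusted p = 2.3e-04 and 6.1e-04), so Ptcd3 was lower in null H9C2 and higher in cKO hearts. Ssbp1 likewise fell in H9C2, by 0.44 (edgeR adjusted p = 0.0095), as 1 of 2 that fell among 16 upkeep genes, of which 1, Twnk, the mitochondrial helicase, rose. Of 15 tested tRNA modification enzymes 1 rose and 1 fell, and of 22 synthetases 1 fell, Gars, by 0.67 (edgeR adjusted p = 3.0e-05), which also charges cytosolic tRNA.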

How the data were processed

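The authors deposited whole-number counts per gene (heart RNA-seq and H9C2) and per reading frame (Ribo-seq), with no normalization, as read from the values. The submitters' processing notes list Bowtie, Bowtie2, cutadapt, DESeq2, featureCounts, HISAT2, STAR and StringTie and the builds GRCm38 (mouse) and Rnor_6.0 (rat). Which tool made which table, the strand setting and the treatment of reads that match several places are not given in the sources used here. Column names of the H9C2 table end like annotation files, so transcript coverage may underlie its counts. The 4 tRNA libraries were not used: their table lists 272 names, none mitochondrial, and its 2 columns were not mapped to samples.

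Of 55487 heart IDs 55141 had a symbol. Mouse coordinates are RefSeq GRCm38.p6. For each gene the frame with the most footprints was kept (98.9% of footprints). Tests used edgeR 4.0.16 (glmQLFit, glmQLFTest, R 4.3.3) with filterByExpr, TMM factors and Benjamini-Hochberg adjustment over all genes at 0.05, by assay. Translational efficiency was the interaction of genotype and assay. The SE is the absolute log2 fold change over the square root of F. Tests were first run on simulated data. Alternatives were relative-log-expression factors, library totals, TMM without mitochondrial genes, DESeq2 1.42.0, at least 1 count, 50 or more counts throughout 1 group, footprints summed over frames, a replicate block and each replicate left out. Every frame tested alone and chromosome 1 copies added were chosen after seeing the data, as were extra gene names for some list genes. Every mitochondrial gene is accounted for, mRNAs, rRNAs and tRNAs with at least 1 CPM by library, and of each list up to 3 genes per direction with the smallest adjusted p could be named. Footprint levels are CPM too. The members and lists were chosen with earlier results of these data known.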

Additional observations from a re-analysis of the deposited data

How the results depend on the processing

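Counts of mitochondrial genes called in heart RNA were 13, and 20 with the replicate block. DESeq2 called fewer there, 2 higher and 7 lower, of which 6 were mRNAs. With at least 1 count 4 were called higher and 12 lower. Heart footprint calls were 4, but 1 with DESeq2, 7 with at least 1 count, 7 with the replicate block and 7 with every frame as its own row. Translational efficiency had 0, but 1 with DESeq2 and 2 with the replicate block, of which 1 was the tRNA mt-Ti. H9C2 had 3, but 5 with DESeq2 and 5 with the replicate block. With 1 replicate left out the counts ranged from 10 to 16, 2 to 7, 0 to 1 and 0 to 5 in these comparisons. Same-numbered cKO and Ctrl (or null and WT) libraries of 1 assay did not deviate together. Their correlations were 0.0092 in heart RNA, −0.040 in Ribo-seq and 0.0065, 0.048 and −0.053 in H9C2, so the replicate number is not taken as a pairing of genotypes. These values cannot show whether RNA and footprint libraries of the same number came from 1 heart. The replicate block of the translational efficiency test pairs those libraries. Shares by class moved by less than 1 SD. With 1 replicate left out, the mean of 2 or 3 libraries cannot move further than that, so this part shows nothing about stability. With mitochondrial rRNA counts left out of the total, the mean mRNA shares were 22.7% in cKO and 25.5% in Ctrl hearts. Among called genes none changed sign. Those that did were not called in the main test. With the chromosome 1 copy added mt-Nd3 in heart RNA was 0.036, and with library totals mt-Nd4 footprints were 0.044. With 1 replicate left out, log2 fold changes in heart RNA ran from −0.27 to 0.0036 for mt-Rnr2, −0.43 to 0.11 for mt-Tn and −0.60 to 0.23 for mt-Nd3. Footprints ran from −0.78 to 0.021 for mt-Nd2, −0.32 to 0.21 for mt-Nd4 and −0.55 to 0.066 for mt-Nd6, and translational efficiency from −0.33 to 0.17 for mt-Rnr1, −0.62 to 0.12 for mt-Nd2, −0.39 to 0.072 for mt-Co1, −0.060 to 0.43 for mt-Nd4 and −0.26 to 0.38 for mt-Nd6. In H9C2 they ran from −0.058 to 0.14 for Mt-nd1, −0.068 to 0.17 for Mt-nd2, −0.14 to 0.069 for Mt-atp6, −0.17 to 0.020 for Mt-co3, −0.17 to 0.018 for Mt-co2 and −0.19 to 0.041 for Mt-atp8. Nd1 and Nd2 of H9C2 were then called higher without WT 2. Depth limits the tRNAs near 1 CPM, such as mt-Tl2 with 12 to 20 counts per library. The causes of these shifts were not tested.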
